A study of Mus musculus with 69 samples.

Results

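The genes described here are 10 inflammatory chemokines of mouse macrophages: Ccl3, Ccl4, Ccl5, Ccl6, Ccl9, Cxcl1, Cxcl2, Cxcl10, Cxcl14 and Cxcl16. They were chosen by symbol, and all 10 were found among the 24537 genes of each of the 3 expression tables and among the 24527 genes of both tables of F1 alleles. The question was how far inbred strains of mice differ in chemokine mRNA in macrophages, at rest and after interleukin-4 (IL-4), and what loss of the transcription factor EGR2 does to that mRNA. All 69 libraries were polyA RNA-seq of bone marrow-derived macrophages (BMDMs), which are marrow cells grown into macrophages over 7 days with M-CSF. The mice were females of 8 to 12 weeks, and the dose of IL-4 was 20 ng/ml. The first experiment held BMDMs of 5 strains, C57BL/6J, BALB/cJ, NOD/ShiLtJ, PWK/PhJ and SPRET/EiJ, called C57, BALB, NOD, PWK and SPRET below, untreated (basal) or after 24 h of IL-4, with 3 libraries per group except 2 for basal PWK. The second followed C57 and SPRET at 0, 1, 6 and 24 h of IL-4, with 2 libraries per group. The third used mice with both Egr2 alleles floxed, either without Cre (Egr2flfl, here Egr2WT) or with LyzM-Cre (Egr2MKO), at the same 4 times with 2 libraries each, and both genotypes carried the floxed alleles. LyzM-Cre is expressed in myeloid cells, so the deletion is not limited to macrophages and other myeloid cells of these mice also carry it. The last held BMDMs of C57 x NOD and C57 x SPRET F1 mice, basal and after 24 h of IL-4, with 2 libraries per group and separate values for each parental allele. No label says whether the replicates came from separate mice, so the p-values measure the spread between these libraries, which may be technical.

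Chemokines are small secreted proteins that guide leukocytes along a concentration gradient by binding receptors with a G protein on the target cell. The CC family mainly draws monocytes, macrophages, T cells and eosinophils, whereas CXC members with an ELR motif, such as CXCL1 and CXCL2, draw neutrophils. Macrophages are a main source of both, and NF-kB and interferon signals are well known to switch on many of these genes. IL-4 is the classical signal for alternative activation, acts through STAT6, and is known to induce another group of chemokines, such as Ccl17, Ccl22 and Ccl24.

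Levels are TPM, transcript abundances scaled to exon length and to the library total that can be compared between genes of a library, and differences are on the log2(TPM + 1) scale, which understates changes of genes near 1 TPM. Each table was fitted over all its genes with limma, and a gene was called when it differed over 2-fold with an adjusted p under 0.05. All 10 chemokines passed the filter of at least 1 TPM in at least 2 libraries in the strain table (11907 genes tested) and in the time course (12088 genes), and 9 passed it in the Egr2 table (12079 genes), where Cxcl14 did not. The libraries held 4.69 to 32.9 M tags (M, mega). The summed TPM of 8 macrophage markers was 11000 to 54500 across the 3 tables, and the 4 lymphocyte markers Cd3e, Cd79a, Ms4a1 and Nkg7 were under 1 TPM in every library. The 8 neutrophil markers Ly6g, S100a8, S100a9, Camp, Mpo, Elane, Ngp and Retnlg summed to 15.2 to 598 TPM in the strain table, 6.49 to 94.2 in the time course and 10.9 to 85.2 in the Egr2 table. S100a8 made up most of the basal sum in C57, NOD, PWK and SPRET of the strain table. In the time course only S100a8 and Camp reached 1 TPM in any library. Ly6g and Retnlg were under 1 TPM in every library, as was Mpo outside the Egr2 table. In bulk RNA, fewer cells of a type and less RNA per cell cannot be told apart. Cxcl1 and Cxcl2, Ccl3 and Ccl4, and Ccl6 and Ccl9 are close relatives in sequence, and how reads matching both of a pair were assigned is not given in the sources used here, so the split within a pair is uncertain.

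The genes lie in 2 neighbourhoods and at 3 other places of the C57 reference genome (mm10). Ccl5, Ccl9, Ccl6, Ccl3 and Ccl4 share 139 kb of chromosome 11, from 83525779 to 83664683, and Cxcl1 and Cxcl2 lie 10.8 kb apart on chromosome 5. Cxcl10 is further along chromosome 5, Cxcl14 is on chromosome 13 and Cxcl16 is on chromosome 11 outside the Ccl cluster. Promoter windows of 7 of the 10 genes were matched by symbol in the RefSeq table used here (GRCm38.p6, the mm10 assembly), and those of Ccl4, Ccl5 and Cxcl16 were not analysed here. The 250 bases before the start are shown for the neighbouring pairs Cxcl1 and Cxcl2, and Ccl6 and Ccl9, whose members moved alike or apart in the data below, and for Cxcl10, each on its coding strand, with matches in capitals to any of 9 motifs searched on both strands. The kB and ISRE motifs are given by name. STAT was searched as TTCNNNGAA and STAT6 as TTCNNNNGAA. The AP-1 motif was spelled TGANTCA, the motif of C/EBP was TTGCNNAA and that of PU.1 was spelled GAGGAAG. The EGR motif was spelled GTGGGCG and the TATA motif was spelled TATAAA. AP-1, STAT and STAT6 read alike on both strands, so that each match counts on both.
Cxcl1 (chr5:90890995-90891244, plus strand): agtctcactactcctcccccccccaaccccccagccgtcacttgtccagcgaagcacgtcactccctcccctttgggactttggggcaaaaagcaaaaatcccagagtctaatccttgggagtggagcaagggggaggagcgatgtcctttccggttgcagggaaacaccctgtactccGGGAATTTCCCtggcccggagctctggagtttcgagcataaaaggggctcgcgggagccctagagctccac
Cxcl2 (chr5:90903649-90903898, plus strand): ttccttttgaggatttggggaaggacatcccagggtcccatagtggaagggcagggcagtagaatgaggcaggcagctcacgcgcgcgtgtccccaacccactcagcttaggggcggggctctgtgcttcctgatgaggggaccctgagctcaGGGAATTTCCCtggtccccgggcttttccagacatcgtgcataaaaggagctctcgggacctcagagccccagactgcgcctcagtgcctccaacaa
Cxcl10 (chr5:92348890-92349139, minus strand): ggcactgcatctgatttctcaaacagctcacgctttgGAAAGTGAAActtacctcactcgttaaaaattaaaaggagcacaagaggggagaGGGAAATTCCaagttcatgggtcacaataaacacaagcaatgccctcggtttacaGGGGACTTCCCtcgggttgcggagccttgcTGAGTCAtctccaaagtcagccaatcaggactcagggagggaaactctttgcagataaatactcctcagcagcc
Ccl6 (chr11:83593088-83593337, minus strand): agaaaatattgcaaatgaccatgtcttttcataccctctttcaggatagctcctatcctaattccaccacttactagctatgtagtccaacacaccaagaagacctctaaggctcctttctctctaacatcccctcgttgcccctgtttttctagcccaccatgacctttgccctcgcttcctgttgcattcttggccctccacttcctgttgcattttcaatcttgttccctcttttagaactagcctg
Ccl9 (chr11:83578637-83578886, minus strand): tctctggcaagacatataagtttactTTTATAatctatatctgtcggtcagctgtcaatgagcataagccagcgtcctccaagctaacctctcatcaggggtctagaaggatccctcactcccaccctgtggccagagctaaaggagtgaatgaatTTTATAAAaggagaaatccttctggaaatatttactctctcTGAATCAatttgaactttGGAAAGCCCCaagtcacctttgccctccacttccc
The windows of Cxcl1 and Cxcl2 each held the same GGGAATTTCCC run, a kB match on both strands, ending 61 and 87 bases before the start. Cxcl10 held kB matches at 2 places, 1 ISRE and 1 AP-1 match. Ccl9 held a kB match starting 35 bases before the start, with an AP-1 and 2 places with TATA matches, whereas Ccl6 held none of the 9 motifs. A kB match was present in 7.25% of all 32851 promoter windows of this length, an ISRE match in 2.98%, an AP-1 match in 6.75% and a TATA match in 12.4%. STAT, STAT6, C/EBP, PU.1 and EGR matches, in 7.02%, 5.85%, 9.56%, 10.6% and 7.02% of windows, were absent from these 5 sequences. Of the remaining windows, Ccl3 held no match and Cxcl14 held a STAT and an ISRE match. A match is a string of letters in the C57 reference and does not show that a factor binds there.

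Resting macrophages of the 5 strains differed widely in chemokine mRNA. NOD had the highest level of 8 of the 10 genes, and SPRET the lowest of Ccl3, Ccl4, Ccl5, Ccl6, Ccl9, Cxcl10 and Cxcl16. The 10 genes summed to 8243 ± 90.6 TPM in NOD (SD, n = 3), 427 ± 6.62 in SPRET, 1568 ± 16.6 in PWK (n = 2), 1931 ± 86.0 in BALB and 2361 ± 61.6 in C57. Ccl5 made up 69.9% of that sum in C57, 64.9% in BALB and 70.4% in NOD, whereas Cxcl16 led in PWK with 49.5% and in SPRET with 71.9%. In NOD against C57, 8 genes were called higher and none lower, where 16.9% of all genes tested were called. PWK had 3 higher and 4 lower (13.3% of all genes called), SPRET 2 higher and 6 lower (18.1%), and BALB 2 higher and 1 lower (4.81%). PWK libraries stood apart in cell markers: the 5 fibroblast and stroma markers summed to 202 to 210 TPM at rest and 105 to 112 after IL-4, beside 2.24 to 16.7 in the other 4 strains, and the 8 macrophage markers to 11500 to 11700 TPM at rest, beside 19000 to 30800. Of the stroma markers, Col1a1, Col1a2 and Col3a1 were under 1 TPM in every library of the 5 strains. The PWK stroma sum thus came almost wholly from Dcn and Pdgfra. The part of these cell markers in the PWK levels was not tested.

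**Figure D1:**
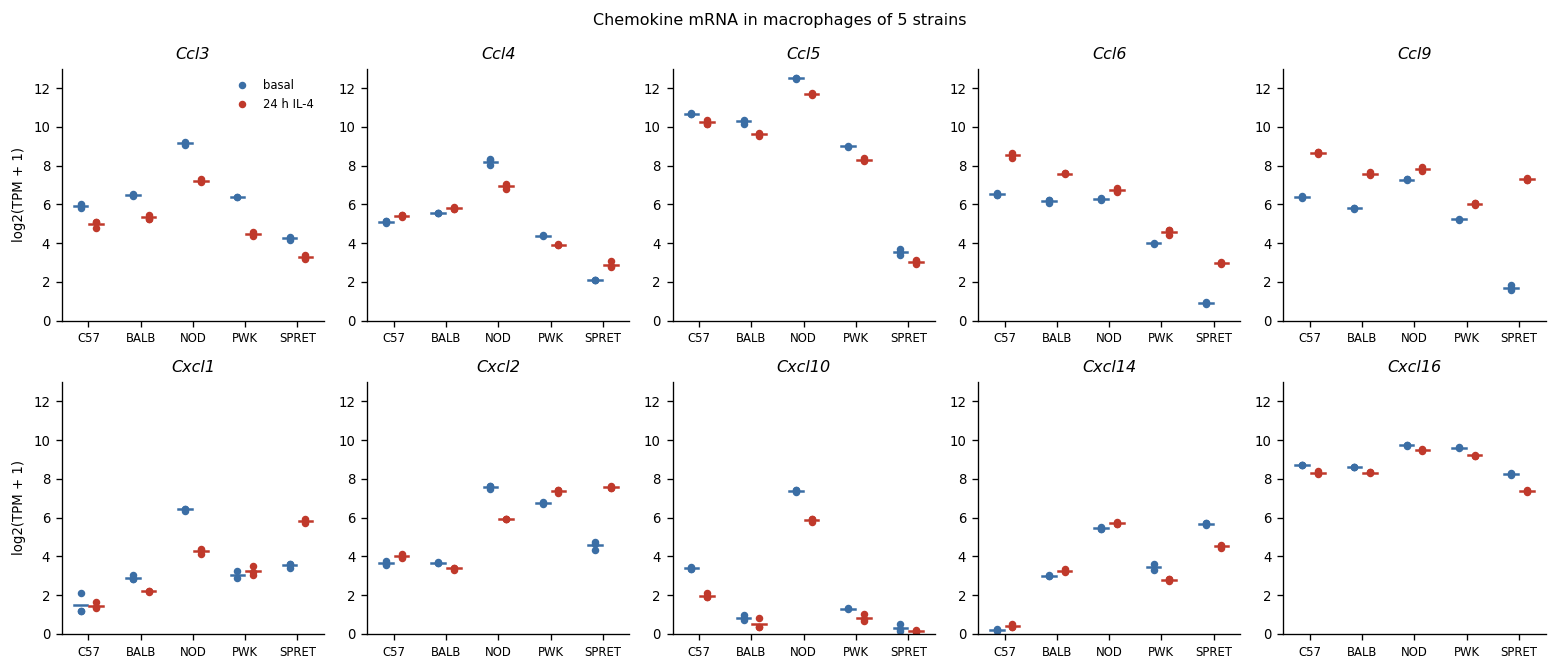
Each panel plots log2(TPM + 1) of a chemokine in every library of the 5 strains (points, basal in blue and 24 h IL-4 in red) with the group mean as a bar, 3 libraries per group and 2 for basal PWK. The NOD basal points are the highest of the basal points for 8 of the 10 genes, and the SPRET Ccl5, Ccl6 and Cxcl10 points sit far below those of C57.

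Ccl3, Ccl4 and Ccl5 are CC chemokines that draw monocytes and T cells. Ccl3 was 63.9, 55.5 and 59.5 TPM in C57 basal libraries, 586, 535 and 591 in NOD, 83.9 and 82.1 in PWK, 89.7, 86.6 and 92.7 in BALB, and 19.1, 17.1 and 18.3 in SPRET. NOD lay 3.24 ± 0.08 above C57 (log2, SE; limma adjusted p = 1.6e-21) and SPRET 1.66 below it (adjusted p = 5.9e-16), whereas the difference of PWK from BALB did not pass the test (log2 difference -0.11, adjusted p = 0.26). Ccl4 was 34.8, 31.8 and 33.9 TPM in C57, 319, 259 and 308 in NOD and 3.28, 3.22 and 3.31 in SPRET, so that the groups were far apart. Ccl5 was the most abundant of the 10 in C57, BALB and NOD, at 1612, 1628 and 1715 TPM in C57, 5690, 5852 and 5878 in NOD and 9.35, 11.9 and 10.6 in SPRET. The ratio of the NOD to the SPRET mean was 547 for Ccl5, 90.3 for Ccl4 and 31.4 for Ccl3, and no library of these strains overlapped. PWK lay between, with Ccl5 at 518 and 504 TPM, a fall of 1.69 ± 0.08 from C57 (adjusted p = 8.3e-16).

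Ccl6 and Ccl9 are neighbouring genes for ligands of CCR1 that are largely made by myeloid cells. Both were lowest in SPRET. Ccl6 was 88.5, 89.8 and 94.8 TPM in C57, 79.6, 73.7 and 76.6 in NOD, 15.1 and 14.7 in PWK and 0.921, 0.905 and 0.827 in SPRET. SPRET lay 5.61 ± 0.07 below C57 (adjusted p = 1e-27), and NOD and BALB were adjacent and did not differ beyond their spread (0.09, adjusted p = 0.23). Ccl9 was 83.5, 80.7 and 87.0 TPM in C57, 157, 151 and 156 in NOD, 36.1 and 37.5 in PWK and 2.24, 2.61 and 1.99 in SPRET. It therefore followed the order of Ccl5, with NOD first and PWK and SPRET last. The Ccl6 difference between NOD and C57 was small (-0.25, adjusted p = 0.0025) and changed sign to 0.15 when libraries were rescaled by median ratios, a scaling that moved the median NOD to C57 difference of all genes from -0.30 to 0.00. Under the same scaling Ccl9 rose to 1.27 above C57 in NOD from 0.88 and became called.

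Cxcl1 and Cxcl2, the CXCR2 ligands that recruit neutrophils, had another order of strains. Cxcl1 was 1.30, 1.24 and 3.29 TPM in C57, 6.08, 6.22 and 7.27 in BALB, 6.43 and 8.34 in PWK, 11.4, 9.53 and 11.0 in SPRET and 87.6, 81.1 and 85.7 in NOD. The other 4 strains lay above C57, by 1.42 ± 0.16 in BALB (adjusted p = 1.1e-07), 1.57 ± 0.18 in PWK (adjusted p = 6.1e-08), 2.05 ± 0.16 in SPRET (adjusted p = 4e-11) and 4.93 ± 0.16 in NOD (adjusted p = 1.4e-18). PWK and BALB did not differ beyond their spread (0.15, adjusted p = 0.49). Cxcl2 was 12.4, 10.8 and 11.1 TPM in C57, 11.5, 12.3 and 11.6 in BALB, 26.3, 19.3 and 24.0 in SPRET, 104 and 112 in PWK and 199, 178 and 196 in NOD. C57 and BALB overlapped (adjusted p = 0.70), and PWK was called higher than C57 by 3.13 ± 0.09 (adjusted p = 6.5e-20). The neutrophil marker S100a8 was also higher in SPRET (mean 366 TPM) and PWK (346) than in C57 (97.3) under basal conditions but not in NOD (44.8), and the summed 8 neutrophil markers were 344 to 404 TPM in SPRET, 548 to 555 in PWK, 106 to 131 in C57 and 40.9 to 52.7 in NOD. Their part in the Cxcl1 and Cxcl2 levels was not tested.

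Cxcl10, an interferon-induced ligand of CXCR3 on T cells, had a NOD mean 667 times that of SPRET, a ratio that rests on SPRET values under 1 TPM. It was 9.88, 9.30 and 9.06 TPM in C57, 172, 159 and 169 in NOD, 1.46 and 1.50 in PWK, 0.966, 0.671 and 0.752 in BALB and 0.443, 0.187 and 0.120 in SPRET. All 4 other strains were called against C57, NOD higher by 4.01 ± 0.11 (adjusted p = 5.7e-20) and the others lower by 2.07 to 3.07. Cxcl14, which acts on monocytes and dendritic cells and has no well-agreed receptor, was lowest in C57, at 0.145, 0.092 and 0.181 TPM. It reached 51.9, 51.7 and 48.3 TPM in SPRET, 41.9, 41.6 and 45.0 in NOD, 8.97 and 11.3 in PWK and 7.00, 7.18 and 6.83 in BALB, and each of these strains was called higher than C57. Cxcl16, a membrane-anchored ligand of CXCR6 that also takes up oxidized lipoproteins, varied least, with strain means from 307.1 to 853.8 TPM. Its NOD difference from C57 was at the threshold (1.03 ± 0.04, adjusted p = 1.6e-17) and fell to 0.96 with quantile normalization, which ended the call.

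Across the 10 strain and treatment means of the first experiment, Ccl4 and Ccl5 were most alike (Pearson r = 0.91), followed by Ccl3 and Ccl4 (0.88). Ccl6 and Ccl9 had r = 0.81, Cxcl1 and Cxcl2 r = 0.78, and Ccl6 and Cxcl14 r = -0.52. These are descriptions, since each strain enters as a pair of means.

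IL-4 for 24 h raised Ccl6 and Ccl9 and lowered Ccl3, Ccl5 and Cxcl16 in all 5 strains (each with an adjusted p under 0.05), and moved Cxcl1 and Cxcl2 in opposite directions in NOD and SPRET. In C57, 2 genes were called higher and 1 lower, where 3.8% of all genes tested were called. BALB had 2 higher and 1 lower (2.08% of all genes called), NOD 0 higher and 5 lower (1.19%), PWK 0 higher and 1 lower (2.08%) and SPRET 4 higher and 1 lower (3.94%). The median change of the 10 genes was -1.03 in NOD, beside 0.12 for all genes, and 0.31 in SPRET, beside 0.11.

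**Figure D2:**
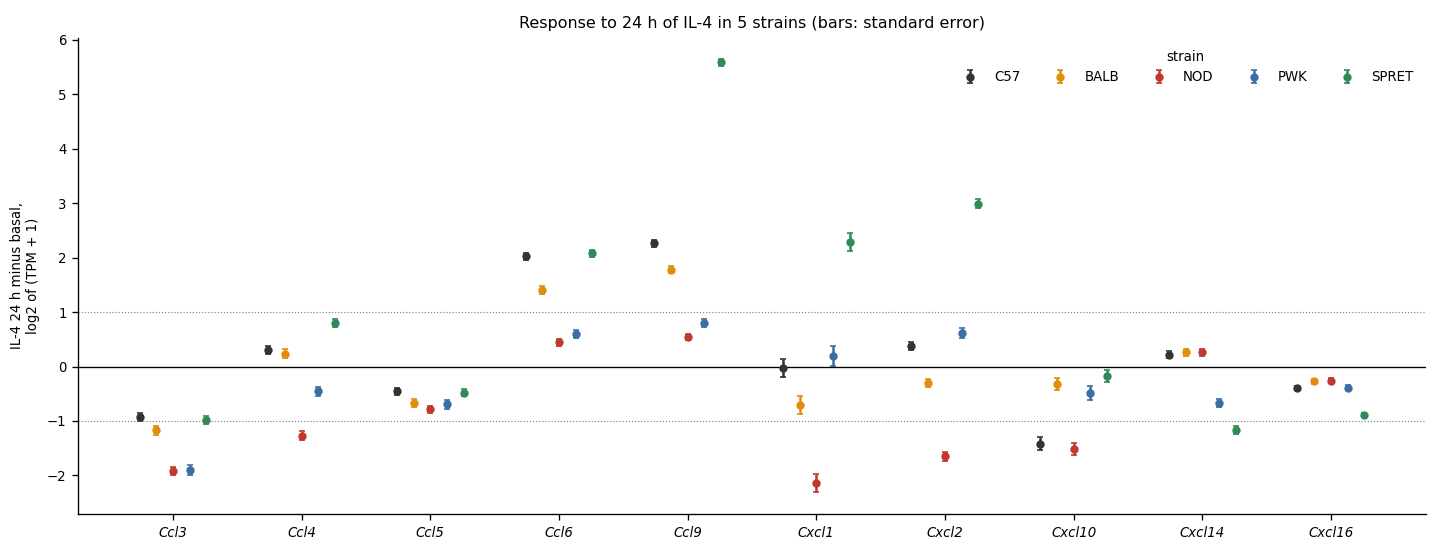
The points are the change with 24 h of IL-4 (log2(TPM + 1), IL-4 minus basal) of each chemokine in each strain, and the bars are the standard error of the limma fit. Dotted lines mark a 2-fold change. SPRET stands above the other strains for Ccl9, Cxcl1 and Cxcl2, and NOD below them for Ccl4, Cxcl1 and Cxcl2.

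Ccl6 rose from a mean of 91.0 to 373.6 TPM in C57, where the IL-4 libraries were 378, 402 and 341. The change was 2.02 ± 0.07 (adjusted p = 5.9e-18), and BALB changed by 1.41 ± 0.07, to 194, 189 and 194 TPM. NOD reached only 114, 98.3 and 102 TPM (0.44 ± 0.07, adjusted p = 2.2e-05), and PWK 24.4, 20.3 and 24.7 (0.59 ± 0.08). These smaller responses differed from that of C57 by -1.58 ± 0.10 in NOD (adjusted p = 6.2e-12) and -1.43 ± 0.10 in PWK (adjusted p = 2e-10). SPRET rose to 6.93, 6.63 and 7.32 TPM, a ratio of means of 7.87, but still 5.56 below C57. Whether that response was larger or smaller than in C57 depended on the pseudocount, with a difference of 0.06 (adjusted p = 0.70) at 1 TPM and -0.95 at 5 TPM.

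Ccl9 rose in all 5 strains and most in SPRET, from 2.24, 2.61 and 1.99 TPM to 150, 153 and 166. That change of 5.59 ± 0.06 (adjusted p = 2.5e-28) exceeded the C57 change of 2.26 ± 0.06, from a mean of 83.7 to 405.1 TPM, by 3.33 ± 0.08 (adjusted p = 2.3e-19). SPRET thus moved from the lowest Ccl9 level at rest to a level above PWK after IL-4, where PWK libraries were 62.2, 65.5 and 66.6 TPM. The NOD response of 0.54 and the PWK response of 0.80 did not reach 2-fold and were below that of C57 by 1.72 ± 0.08 and 1.46 ± 0.09. The ligand pair therefore had its smallest responses in the same strains, NOD and PWK. In SPRET the Ccl9 response clearly exceeded that of C57, whereas for Ccl6 the comparison with C57 depended on the pseudocount.

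Ccl3 fell more than Ccl5 in each strain. It fell in NOD to 159, 144 and 147 TPM (-1.92 ± 0.08), in PWK to 23.0, 20.1 and 21.3 (-1.90 ± 0.09) and in BALB to 43.2, 37.3 and 37.4 (-1.17 ± 0.08), and in C57 (-0.92) and SPRET (-0.99) by slightly under 2-fold, all with adjusted p of 3.4e-10 or less. Basal and IL-4 libraries did not overlap in any strain. Ccl4 instead fell by 1.27 ± 0.08 in NOD, to 133, 122 and 111 TPM, and rose by 0.79 ± 0.08 in SPRET, to 7.41, 6.14 and 5.76. Ccl5 fell in all 5 strains by 0.45 to 0.79, never 2-fold, and remained at 3381, 3490 and 3221 TPM in NOD.

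Cxcl1 and Cxcl2 had the clearest opposite responses. Cxcl1 rose in SPRET to 52.6, 59.1 and 55.7 TPM (2.29 ± 0.16, adjusted p = 1.8e-11) and fell in NOD to 16.4, 18.8 and 20.0 (-2.15 ± 0.16, adjusted p = 2.9e-10). In C57 the IL-4 libraries were at 1.51 to 2.16 TPM beside 1.24 to 3.29 at rest (adjusted p = 0.92). Cxcl2 rose in SPRET to 187, 186 and 199 TPM (2.99 ± 0.08, adjusted p = 2.5e-20), fell in NOD to 60.4, 59.1 and 60.8 (-1.65 ± 0.08, adjusted p = 4.5e-14), and rose slightly in PWK to 173, 152 and 171 (0.61 ± 0.09). After IL-4 SPRET, and no longer NOD, had the highest level of both genes, with PWK close behind for Cxcl2 (0.20, adjusted p = 0.023). The SPRET response exceeded that of C57 by 2.32 ± 0.23 for Cxcl1 and 2.61 ± 0.11 for Cxcl2, and the NOD response was below it by 2.12 ± 0.23 and 2.03 ± 0.11. The summed neutrophil markers went from 344 to 404 TPM at rest to 249 to 274 after IL-4 in SPRET and from 40.9 to 52.7 to 15.2 to 18.9 in NOD. They went from 106 to 131 to 16.7 to 24.3 in C57 and read 548 to 555 and 546 to 598 in PWK. Their part in these changes was not tested. These are the 2 genes with the shared GGGAATTTCCC run printed above, and the part of that run in their responses was not tested. The windows of Ccl9 and Cxcl10 also held kB matches.

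Cxcl10 fell in C57 to 3.25, 2.68 and 2.79 TPM (-1.42 ± 0.11, adjusted p = 2e-10) and in NOD to 60.7, 59.1 and 53.2 (-1.52 ± 0.11, adjusted p = 2.2e-10). In BALB and SPRET it was under 1 TPM in every library, so that their called response differences from C57 (1.09 and 1.25) rested on the fall in C57, and both lost significance with a pseudocount of 0.1 TPM (adjusted p = 0.16 and 0.06). Without the second BALB library of IL-4 the BALB difference was 0.93, which ended that call. Cxcl14 fell in SPRET to 22.9, 22.3 and 20.9 TPM (-1.16 ± 0.07, adjusted p = 3.3e-13) and in PWK to 5.70, 6.11 and 6.03 (-0.68), whereas NOD rose slightly to 50.4, 50.9 and 52.9 (0.26). Cxcl16 fell in all 5 strains, by 0.26 to 0.89, and most in SPRET, to 171, 164 and 160 TPM. Counting calls of response differences from C57, NOD had 5 of the 10 genes (2.47% of all genes called), SPRET 5 (3.45%), PWK 2 (2.26%) and BALB 1 (1.49%).

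With IL-4 present, the strain differences largely persisted. NOD had 8 genes called higher and 1 lower than C57 (13.2% of all genes called), the same 8 as at rest with Ccl6 lower in addition. PWK had 3 higher and 5 lower (12.2%), SPRET 3 higher and 6 lower (20.6%) and BALB 1 higher and 2 lower (5.39%). Cxcl14 was the only member called higher than C57 in all 4 strains at both conditions. The sum of the 10 genes fell with IL-4 to 4868 ± 149 TPM in NOD, 1606 ± 38.4 in BALB and 1212 ± 28.8 in PWK. It was near its basal value in C57 (2399 ± 129). In SPRET it rose to 619 ± 9.25, and Cxcl2 replaced Cxcl16 as the leading transcript at 30.8%.

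The time course resolved the responses of C57 and SPRET. Ccl4 was called at 1 h in both strains, and Cxcl1, Cxcl2 and Ccl9 at 1 h in SPRET. In C57, 1 gene was called at 1 h (0.877% of all genes called), 1 at 6 h (2.13%) and 3 at 24 h (5.76%). In SPRET, 4 were called at 1 h (1.89%), 5 at 6 h (4.57%) and 6 at 24 h (5.62%). SPRET differed from C57 at rest in 6 genes (18.8%). The response itself differed in 2 genes at 1 h (0.811%), 4 at 6 h (2.4%) and 7 at 24 h (6.22%).

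**Figure D3:**
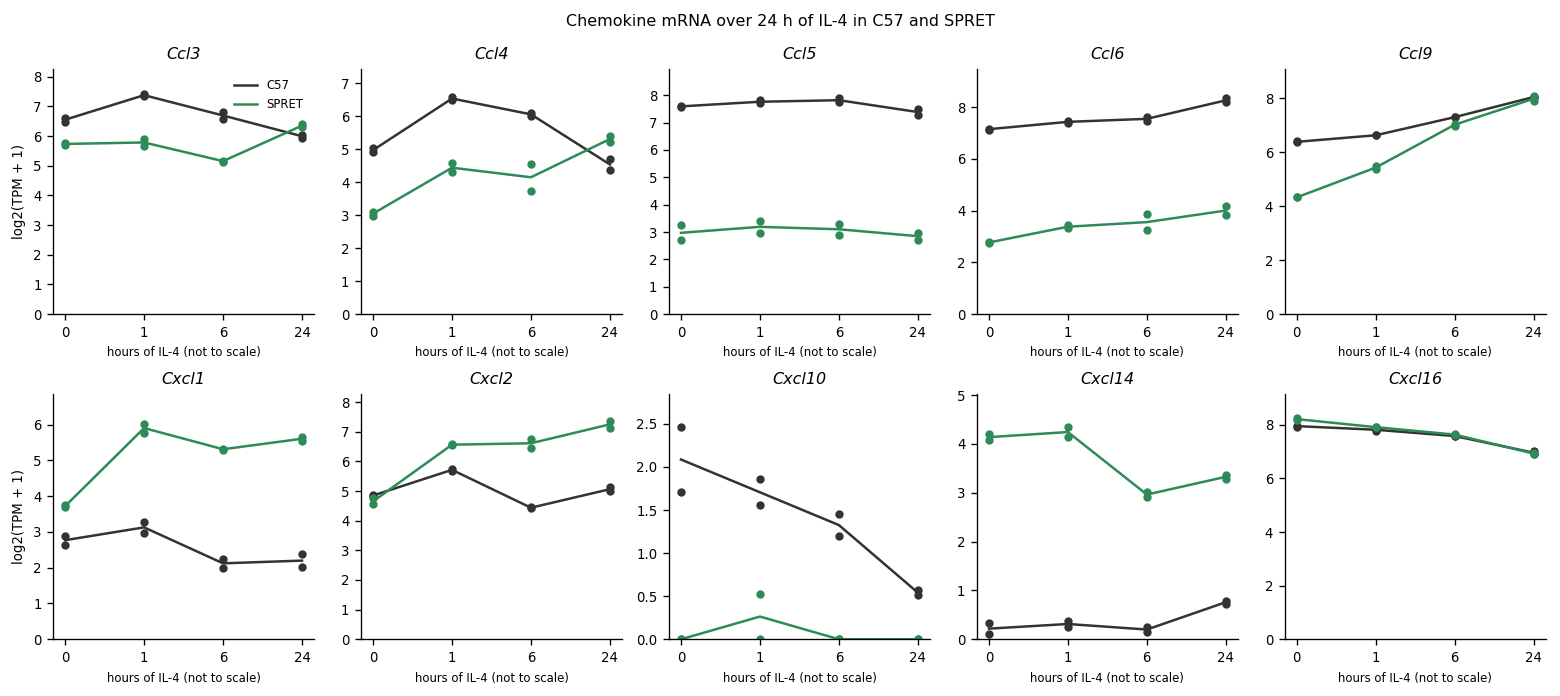
Each panel plots log2(TPM + 1) of a chemokine against hours of IL-4 (0, 1, 6 and 24, not to scale), with each of the 2 libraries per group as a point and a line through the means, on an axis of its own range, C57 in black and SPRET in green. The SPRET lines of Cxcl1 and Cxcl2 rise within 1 h and stay up, whereas the C57 Ccl4 line peaks at 1 h.

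Cxcl1 in SPRET rose from 11.9 and 12.5 TPM to 64.3 and 53.7 at 1 h (2.18 ± 0.15, adjusted p = 4.5e-07), then read 39.2 and 38.1 at 6 h and 45.7 and 49.5 at 24 h. In C57 it went from 6.43 and 5.25 to 6.90 and 8.65, then down to 3.73 and 3.00 and to 3.04 and 4.21. The responses differed by 1.82 ± 0.21 at 1 h, 2.24 at 6 h and 2.45 at 24 h. Cxcl2 started level, at 28.0 and 27.7 TPM in C57 and 22.4 and 26.0 in SPRET (adjusted p = 0.11). It rose in SPRET to 92.9 and 94.5 at 1 h, 107 and 87.4 at 6 h and 165 and 139 at 24 h. C57 also rose at 1 h, to 50.7 and 52.4, by slightly under 2-fold (0.87 ± 0.10, adjusted p = 0.00018), but was down to 20.5 and 20.9 by 6 h. The 1 h response difference of Cxcl2 (1.05 ± 0.14) was 0.94 without the first basal SPRET library, which ended that call. Neutrophil markers summed to 63.2 to 91.7 TPM in SPRET at all 4 times while those of C57 fell from 66.2 to 94.2 at rest to 6.49 to 7.97 at 24 h, and their part in the Cxcl1 and Cxcl2 values was not tested. S100a8 and Camp were the only neutrophil markers to reach 1 TPM in any of these libraries.

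Ccl9 rose steadily. In SPRET it went from 19.1 and 19.0 TPM to 43.4 and 40.7, then 131 and 125, then 268 and 235, and in C57 from 83.2 and 81.2 to 97.1 and 98.0, then 155 and 157, then 263 and 261. Both strains thus met at 24 h from levels that had been 2.06 ± 0.06 apart at rest (adjusted p = 2.7e-11). Ccl6 showed no such convergence, and remained at 17.1 and 13.2 TPM in SPRET against 289 and 322 in C57 at 24 h, with responses of 1.23 ± 0.16 and 1.11 ± 0.16 (difference adjusted p = 0.74).

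Ccl4 in C57 rose from 31.6 and 29.3 TPM to 89.1 and 95.0 at 1 h (1.57 ± 0.20, adjusted p = 0.0004), remained at 63.9 and 67.5 at 6 h, and was down to 19.7 and 25.1 at 24 h. In SPRET it went from 6.91 and 7.64 to 22.8 and 18.8 at 1 h, but read 41.3 and 36.3 at 24 h (2.26 ± 0.20, adjusted p = 2.3e-06). The responses differed at 24 h, by 2.70 ± 0.29 (adjusted p = 2.4e-05), but did not pass the test at 1 h (adjusted p = 0.89) or 6 h (adjusted p = 0.98). The 6 h SPRET libraries lay apart at 22.6 and 12.4 TPM, and the call at 6 h (1.10) dropped to 0.70 without the first of them. Ccl3 in C57 peaked at 168 and 162 TPM at 1 h from 97.5 and 88.0 and fell to 64.7 and 60.7 at 24 h, whereas in SPRET it rose to 83.5 and 77.7 at 24 h from 53.2 and 51.1. The rise of Ccl3 in SPRET (0.62 ± 0.09) was opposite to its fall in SPRET of the first experiment (-0.99), and was the only opposite pair among the 8 genes with an adjusted p under 0.05 at 24 h in both. In C57, 6 of 6 such genes moved the same way in both experiments.

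Cxcl14 was again the higher in SPRET, at 16.0 and 17.3 TPM at rest, 19.4 and 16.5 at 1 h, 7.09 and 6.52 at 6 h and 9.35 and 8.73 at 24 h, beside 0.080 to 0.727 TPM in C57. Cxcl16 fell in both strains, from 303 and 288 to 118 and 124 TPM in SPRET and from 250 and 243 to 118 and 129 in C57. Cxcl10 in SPRET was listed at 0 in every library but 1 at 1 h, and in C57 went from 2.27 and 4.52 TPM to 0.426 and 0.484 at 24 h. The called response difference of Cxcl10 at 24 h (1.55) therefore rested on C57 alone, and lost significance with a pseudocount of 0.1 TPM (adjusted p = 0.061), as did the Cxcl14 response difference at 6 h (-1.24, adjusted p = 0.096). Ccl5 did not change by 2-fold at any time in either strain, and its C57 level at rest, 189 and 196 TPM, was far below the 1612 to 1715 of the first experiment. The experiments were fitted separately, and levels were not tested between them.

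Egr2MKO macrophages differed from Egr2WT in the IL-4 response of Ccl6 and Ccl4 at 24 h, and had more Cxcl10 at 0, 6 and 24 h by the call rule. No group carried LyzM-Cre without the floxed alleles, so effects of Cre and of Egr2 loss cannot be told apart here. EGR2 is a zinc-finger transcription factor that IL-4 induces in macrophages. Egr2 itself was 23.6 and 21.3 TPM in Egr2WT at rest and 101 and 99.5 at 24 h, against 0.859 and 0.854 and then 4.72 and 7.05 in Egr2MKO, so that the targeted gene was low in every library labelled as deleted. In Egr2WT, 1 of the 9 chemokines tested was called at 1 h (0.778% of all genes called), 1 at 6 h (2.86%) and 5 at 24 h (4.35%). In Egr2MKO, 1 was called at 1 h (0.902%), 1 at 6 h (3.7%) and 3 at 24 h (4.83%). The genotypes differed in 1 gene at rest (0.853%), 1 at 1 h (1.06%), 2 at 6 h (2.3%) and 5 at 24 h (4.55%). The response differed in 0 genes at 1 h (0.00828%), 0 at 6 h (0.207%) and 2 at 24 h (1.9%). At an adjusted p under 0.05 without the fold limit, limma gave 0 of 9 at 1 h (0 at an unadjusted p under 0.05) and 2 of 9 at 6 h, Ccl6 and Ccl9 (2 unadjusted).

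**Figure D4:**
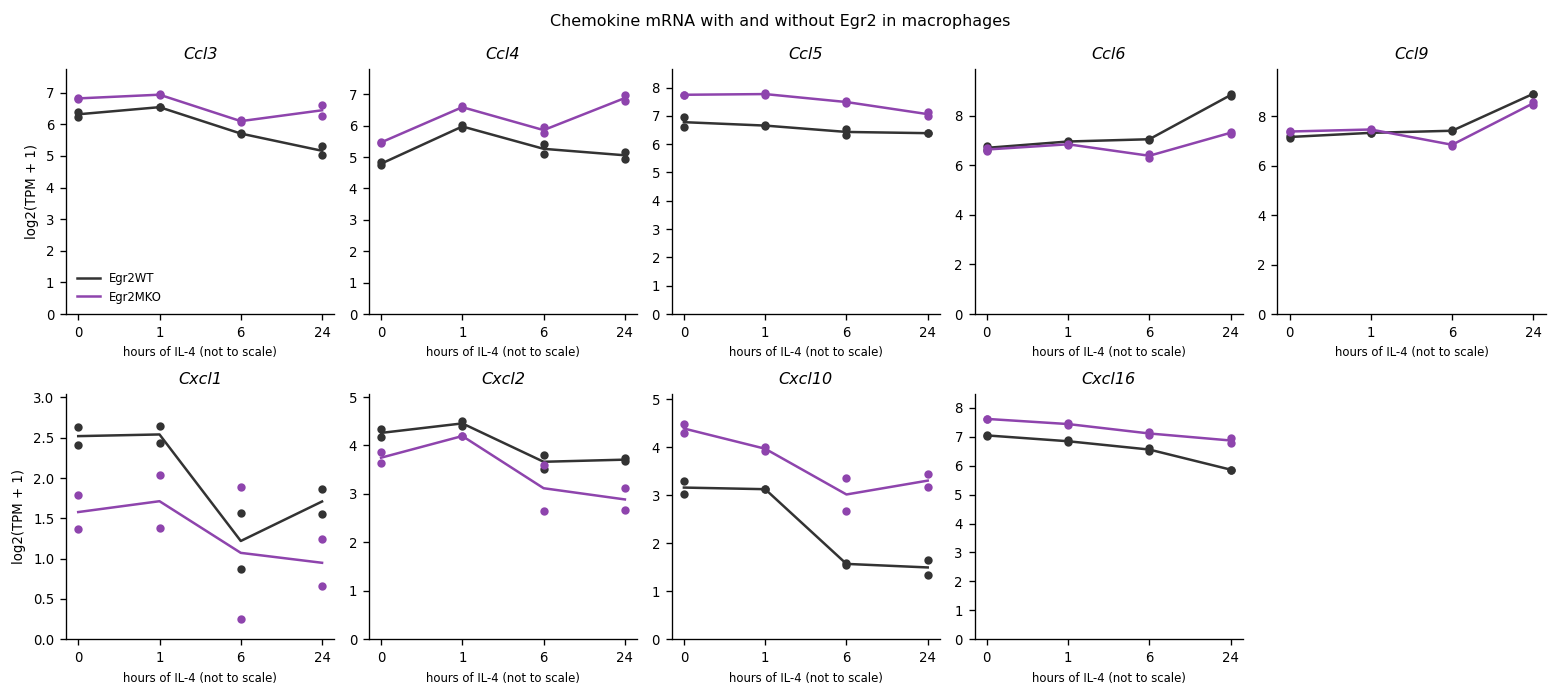
Each panel plots log2(TPM + 1) of a chemokine against hours of IL-4 (0, 1, 6 and 24, not to scale) in Egr2WT (black) and Egr2MKO (purple), with each of the 2 libraries per group as a point and a line through the means, on an axis of its own range. The Egr2WT Ccl6 line climbs at 24 h well above that of Egr2MKO, and the Ccl4 lines part at 24 h in the other direction.

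Ccl6 rose in Egr2WT from 108 and 97.6 TPM to 442 and 463 at 24 h (2.13 ± 0.07, adjusted p = 4e-10). In Egr2MKO it rose only from 102 and 94.1 to 161 and 154 (0.68 ± 0.07). The responses differed by -1.45 ± 0.09 (adjusted p = 2.8e-06), and the genotypes overlapped at rest. Ccl9 reached 476 and 477 TPM in Egr2WT and 381 and 351 in Egr2MKO at 24 h from 137 and 146 and from 165 and 165, a smaller response difference of -0.60 ± 0.07 (adjusted p = 0.00015). At 6 h Ccl9 read 171 and 166 TPM in Egr2WT and 110 and 117 in Egr2MKO. The neighbouring genes both had the smaller response in Egr2MKO.

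Ccl4 rose at 1 h in both genotypes, from 25.8 and 27.4 to 64.5 and 59.3 TPM in Egr2WT and from 42.8 and 43.6 to 98.0 and 92.5 in Egr2MKO. At 24 h it was back at 29.8 and 34.9 in Egr2WT but at 108 and 126 in Egr2MKO, a difference of 1.82 ± 0.11 (adjusted p = 1.6e-07). Ccl3 fell in Egr2WT to 31.3 and 38.6 TPM at 24 h from 83.3 and 74.2 (-1.15 ± 0.11), and in Egr2MKO read 75.7 and 97.6 after 113 and 110. Ccl5 was higher in Egr2MKO at each time, with calls at 1 h (212 and 222 against 102 and 97.8 TPM, 1.11 ± 0.10) and 6 h. Without the second Egr2WT library at 6 h, its difference there went from 1.06 to 0.94.

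Cxcl10 was 21.4 and 18.6 TPM in Egr2MKO and 7.11 and 8.85 in Egr2WT at rest (1.23 ± 0.20, adjusted p = 0.0016), and 7.97 and 9.88 against 1.53 and 2.14 at 24 h (1.81 ± 0.20, adjusted p = 2.1e-05). It fell with IL-4 in both genotypes, by 1.66 ± 0.20 in Egr2WT and 1.09 ± 0.20 in Egr2MKO at 24 h, and the Egr2MKO fall went under 2-fold without the first library at 24 h (-0.95) or at rest (-0.99). The difference of these falls (0.58 ± 0.28) did not pass the test (adjusted p = 0.22). The Egr2MKO excess was under 2-fold at 1 h (0.84, adjusted p = 0.017), and with a pseudocount of 5 TPM also at rest (0.95) and at 6 h (0.80). The 6 h excess (1.45) lost significance when only the groups compared were fitted (adjusted p = 0.12). Cxcl16 was higher in Egr2MKO at all 4 times, by 0.56 to 1.01. At 24 h it read 122 and 110 TPM against 57.1 and 57.2, a difference at the threshold (1.01) that 4 alternatives, lying between 0.87 and 0.96, placed under 2-fold. Cxcl1 was under 6 TPM in all libraries of this table and no comparison of it passed, and Cxcl2 fell in Egr2MKO at 24 h to 5.32 and 7.66 TPM from 13.5 and 11.5 (-0.86 ± 0.24, adjusted p = 0.019). Over the same 24 h the summed neutrophil markers went from 40.4 to 45.3 TPM to 10.9 to 16.1 in Egr2MKO and from 62.3 to 65.5 to 19.4 to 21.9 in Egr2WT, and their part was not tested. Cxcl14 was at 0 to 1.40 TPM.

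In F1 macrophages both alleles of a gene share a nucleus, and the C57 to SPRET ratio between alleles was set beside the ratio between the parental strains of the first experiment. The allele columns were scaled separately, the length given in the C57 x SPRET table was the genomic span in 99.5% of genes, rather than an exon length, and ratios are of log2(value + 1), so this is a description with no test. After IL-4, 7 of the 10 genes differed over 2-fold between the parents and had values on both alleles, and the allele ratio was within 2-fold of the parental ratio for 0 of them. At rest the allele ratio of Cxcl1 was within 2-fold (-1.51 between alleles and -2.05 between parents). The paper reports that most parental-specific reads in this cross stayed near their parental values. The share of all genes within 2-fold by the measure used here is not given. Whether the count of 0 is particular to these genes or comes from the added constant, the separate scaling or the lengths was not tested.

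**Figure D5:**
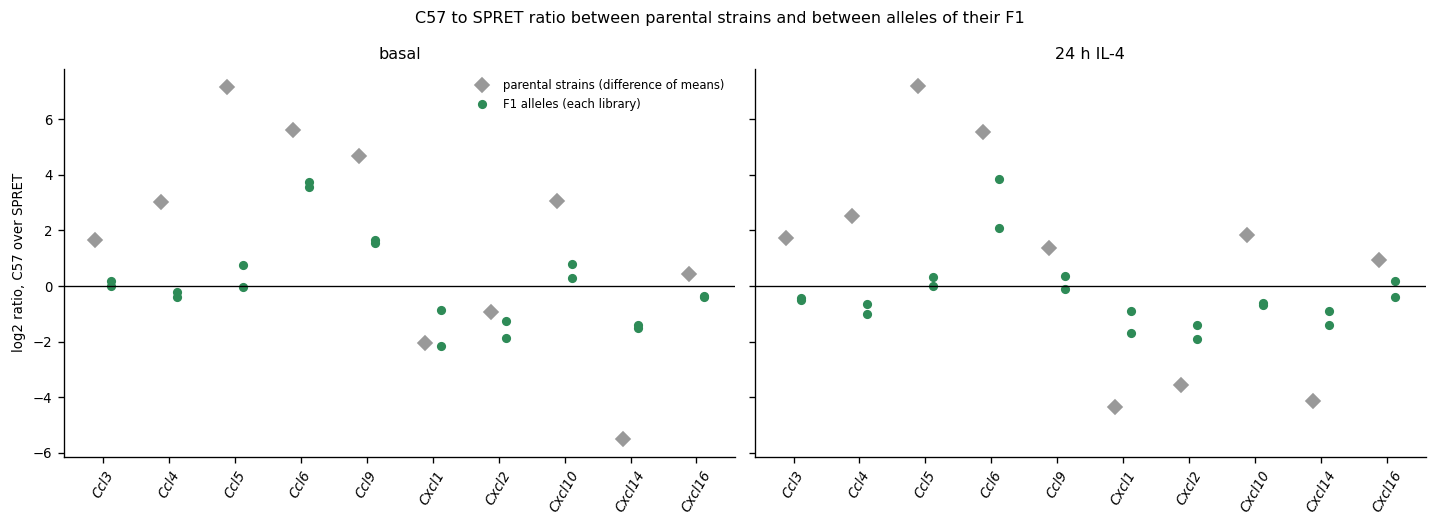
The grey diamonds are the log2 ratio of C57 to SPRET between the parental strains (difference of mean log2(TPM + 1)), and the green points are the ratio between the C57 and SPRET alleles in each of the 2 F1 libraries, at rest (left) and after 24 h of IL-4 (right). The Ccl5 points rest on allele values under 1. Ccl6 keeps the largest allele ratio, while the Ccl3 and Ccl4 points lie near 0 or below.

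Ccl6 kept a C57-biased allele. The C57 allele was at 282 and 319 and the SPRET allele at 20.3 and 26.0 at rest, and 995 and 988 against 68.1 and 232 after IL-4. The mean allele ratio at rest was 3.65 (log2), below the parental 5.61. Ccl9 was biased at rest, at 560 and 743 against 176 and 253, but not after IL-4, at 1551 and 1597 against 1208 and 1712, where the libraries overlapped. Its ratio of IL-4 to basal was 6.80 for the SPRET allele and 2.42 for the C57 allele.

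Ccl3 and Ccl4, which were higher in C57 than in SPRET mice, had near-equal alleles at rest, at 259 and 280 against 257 and 248 for Ccl3 and 88.9 and 71.0 against 103 and 94.6 for Ccl4. After IL-4 the SPRET allele was the higher for both, at 309 and 292 against 218 and 216 for Ccl3 and at 151 and 161 against 95.8 and 80.0 for Ccl4. Ccl5 was at 0.685 or less on every allele, unlike in the C57 parent. The authors weighted allele values by the ratio of reads overlapping variants, and that ratio is not known here for Ccl5. These values therefore do not show the Ccl5 mRNA level of F1 cells. Cxcl1 and Cxcl2 were higher on the SPRET allele, Cxcl2 at 22.1 and 23.1 against 8.76 and 5.62 at rest. Both fell with IL-4 on both alleles, Cxcl2 to 6.48 and 7.36 on the SPRET allele and Cxcl1 there from 10.2 and 13.8 to 2.12 and 2.25, where the SPRET parent had risen. Cxcl14 was higher on the SPRET allele (17.1 and 15.9 against 5.34 and 5.44 at rest). The C57 parent had a mean of 0.139 TPM, but allele values and parental TPM are on unlike scales, so their sizes cannot be compared. Cxcl16 alleles both fell with IL-4, from 274 and 238 to 59.0 and 57.3 for C57 and from 347 and 314 to 78.8 and 51.1 for SPRET. Cxcl10 was at 8.66 and 10.2 (C57) and 4.62 and 8.09 (SPRET) at rest, and under 1 after IL-4.

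The C57 x NOD table could say little of these genes, since 78.9% to 83.6% of its genes were listed at 0. All 4 libraries listed 8 of the 10 chemokines at 0 on both alleles. Cxcl2 had values only in the first basal library, at 7.50 for C57 and 7.87 for NOD. Cxcl14 was higher on the NOD allele in each library, at 18.6 and 55.3 against 11.1 and 0 at rest and at 30.4 and 8.85 against 9.68 and 0 after IL-4.

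Other genes of the same pathways were taken from lists. Of 28 other chemokines, 14 were tested in the strain table, and with IL-4 at 24 h none was called lower there in any strain while 3 in NOD (1.19% of all genes called) to 10 in SPRET (3.94%) were called higher. In the time course 7 were called higher and 2 lower in C57 at 24 h (5.76%), and in Egr2MKO 5 of 12 tested were higher and 1 lower (4.83%). Cxcl3, a further CXCR2 ligand, rose in SPRET from a mean of 37.9 to 1604 TPM (5.38 ± 0.11, limma adjusted p = 9e-23). Ccl24, an eosinophil attractant, rose from 0.0697 to 98.1 TPM and Ccl22 from 1.09 to 49.8 in the same strain.

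Of 20 NF-kB response genes, 9 were called higher and 1 lower in NOD than in C57 at rest (16.9% of all genes called), with a median difference of 0.89 beside -0.30 for all genes. PWK against C57 at rest had 7 higher and 1 lower (median 0.36, 13.3% of all genes called). SPRET had 2 higher and 4 lower (18.1%) and BALB 2 higher and 0 lower (4.81%). Ptgs2, the inducible cyclooxygenase, was at a mean of 135.3 TPM in NOD and 7.48 in C57, and Cd40 at 97.6 and 12.3. With IL-4, 0 of the 20 rose and 4 fell over 2-fold in NOD (1.19%), including Il6, Tnf and Il1b, the strain where Ccl3, Ccl4, Cxcl1 and Cxcl2 also fell. In SPRET 1 was higher and 3 lower (3.94%), and Il1b fell from 615.2 to 144.3 TPM. Of 18 interferon response genes, 13 were called lower and none higher in SPRET than in C57 at rest (median -3.04, 18.1% of all genes called), 7 higher and none lower in NOD (16.9%), and 15 higher and none lower in Egr2MKO than in Egr2WT at 24 h (median 1.53, beside 0.12 for all genes, 4.55% called). Cxcl10 moved in the same direction in each of these 3 comparisons, but not in step with the list in others. With IL-4 in NOD, 0 of the 18 were called (median 0.01, 1.19% of all genes called), while Cxcl10 was called lower. In PWK against C57 after IL-4, 1 was higher and 1 lower (median -0.02, 12.2% of all genes called), and Cxcl10 was called lower. Rsad2, an antiviral enzyme, was at a mean of 1.19 TPM in SPRET, 84.8 in C57 and 418.1 in NOD.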

How the data were processed

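The authors mapped RNA-seq reads with STAR to a genome of each strain made with MMARGE, shifted them to mm10, and counted exons with HOMER, and the values they deposited are TPM per gene. The deposited tables also held columns of the authors' own comparisons, and these were not used. A further table, from human cells, held 8 columns of samples not listed here and was not used either. Depth was 7.02 to 22.5, 5.70 to 24.0 and 4.69 to 32.9 M tags in the strain, time-course and Egr2 tables. From these values, log2(TPM + 1) was fitted per table with limma 3.58.1 (R 4.3.3), with group means and a mean-variance trend, over genes at 1 TPM or more in at least 2 libraries. P-values were adjusted by Benjamini-Hochberg over all genes tested, and fits were tested on simulated data. All 10 chemokines were named, and from each list at most the 3 called genes with the largest change. The members and lists were chosen with earlier results of these data known. A list of receptors is not reported here. F1 values were compared without a test. Alternatives were other pseudocounts, filters, scalings, priors, group subsets, a replicate block and each library left out.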

Additional observations from a re-analysis of the deposited data

Results flagged for a closer look

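Responses to IL-4 that differed between strains or genotypes by the test of the difference itself (limma, over 2-fold with an adjusted p under 0.05) were singled out, 28 in all, each given as the log2 difference of the responses. Against C57 in the strain experiment, these were Cxcl10 in BALB (1.09), and Ccl4 (-1.57), Ccl6 (-1.58), Ccl9 (-1.72), Cxcl1 (-2.12) and Cxcl2 (-2.03) in NOD. PWK had Ccl6 (-1.43) and Ccl9 (-1.46), and SPRET had Ccl9 (3.33), Cxcl1 (2.32), Cxcl2 (2.61), Cxcl10 (1.25) and Cxcl14 (-1.38).

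In the time course, SPRET differed from C57 at 1 h in Cxcl1 (1.82) and Cxcl2 (1.05), and at 6 h in Ccl9 (1.78), Cxcl1 (2.24), Cxcl2 (2.37) and Cxcl14 (-1.16). At 24 h it differed in Ccl3 (1.17), Ccl4 (2.70), Ccl9 (1.99), Cxcl1 (2.45), Cxcl2 (2.38), Cxcl10 (1.55) and Cxcl14 (-1.35). Ccl9, Cxcl1, Cxcl2, Cxcl10 and Cxcl14 had the same sign in both experiments at 24 h. In Egr2MKO against Egr2WT the differences at 24 h were those of Ccl4 (1.15) and Ccl6 (-1.45).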

How the results depend on the processing

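Of 11875 values of single genes recomputed under alternatives, 11645 kept their side of an adjusted p of 0.05 and, where both values passed, their direction. The 2-fold limit was not counted here. Another 173 lost significance, 53 gained it and 4 changed sign. Direction was compared only where the main or the alternative value passed, so sign changes between values that both failed were not counted. Each left-out library meant a refit of all comparisons of its experiment, including those it was not part of. The sign changes were Ccl6 in NOD against C57 at rest (0.149 with median-ratio scaling), the Cxcl14 response difference from C57 in BALB (-0.544) and NOD (-0.573) with a pseudocount of 0.1 TPM, and that of Ccl6 in SPRET (-0.954) with 5 TPM. Of the counts of called genes, higher response differences from C57 went from 5 to 3 with a pseudocount of 0.1 or 5 TPM. With 5 TPM, lower calls in the time course went from 3 to 1, lower calls of SPRET against C57 there, at rest and in the response together, from 7 to 4, lower calls with IL-4 in the Egr2 table from 6 to 3, and higher calls in Egr2MKO from 8 to 5. This pseudocount shrinks genes near 1 TPM, such as Cxcl10. Leaving out each library in turn gave 1 to 2 lower calls in Egr2MKO against Egr2WT, with 2 when the second Egr2MKO library of 6 h or of 24 h was left out, and 5 to 9 lower calls with IL-4 in that table.

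On average, libraries of the same replicate number showed little pairing (mean correlation of deviations 0.0347, 0.0405 and -0.0186 in the 3 tables). Single pairs reached 0.333 in the strain table and 0.266 in the time course, where 2 of 14 and 6 of 24 pairs were over 0.1. Pairing under other numbering was not examined. With the replicate number as a block, the lower calls with IL-4 in the Egr2 table went from 6 to 7 and no other count of calls moved. The median difference of all genes, which median-ratio scaling sets near 0, was -0.295 for NOD against C57 at rest, 0.177 for SPRET against C57 after IL-4 and 0.167 for the NOD response difference. Depth limits Cxcl10, Cxcl14 and Ccl6 where they lie near 1 TPM, and 2 libraries per group limit the time course and the Egr2 table.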
